A study of Mus musculus with 15 samples.

Results

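NRF2 target genes were followed in the mouse embryonic fibroblast line NIH3T3 after a single protein was made to unfold in the cell. The set held 10 genes chosen by name as well-known antioxidant and electrophile-response targets of the transcription factor NRF2, out of 20207 genes in each deposited table. They were Hmox1, Osgin1, Gclc, Gclm, Slc7a11, Gsr, Nqo1, Txnrd1, Srxn1 and G6pdx, and all 10 had at least 1 read in every sample and were tested. The set was chosen with earlier results of these data known. Its counts and medians beside those of all tested genes are therefore descriptions, not independent support. All cells stably carried DD-sfGFP, a destabilizing domain derived from FKBP fused to superfolder GFP, and had been selected by sorting for high GFP. Binding of a small molecule, Shield-1 (S1), keeps this domain folded. It unfolds when S1 is taken away, and here a purified FKBP protein was put into the medium to bind the S1. Poly(A) RNA was sequenced in 5 control samples, in 3 samples taken 45 min after S1 removal, in 3 taken at 135 min and in 4 taken at 405 min. No group without the DD fusion, and no group that received the FKBP protein without unfolding of the DD, was analysed here, so effects of the added protein and of the unfolded domain cannot be told apart. The sources do not say whether the replicates came from separate cultures, so p-values measure the spread between these samples, which may be technical.

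NRF2, encoded by Nfe2l2, is held at a low level in unstressed cells by KEAP1, which presents it to a CUL3 ubiquitin ligase for degradation. Oxidants and electrophiles modify cysteines of KEAP1, NRF2 then accumulates, pairs with a small MAF protein and binds antioxidant response elements (AREs) near its target genes, where the repressor BACH1 competes for some of the same sites. The targets make and recycle glutathione and thioredoxin, supply NADPH and remove heme and quinones, so that their transcripts are widely read as a record of this response in fibroblasts and other cells.

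Promoter windows from RefSeq (GRCm38.p6, 250 bases before to 50 after each start) were used for 7 of the 10 genes, and those of Hmox1, Gclc and Gsr were not analysed here. Both strands were searched with a strict ARE spelling, TGAGTCAGC or TGACTCAGC, which includes the AP-1 motif TGAGTCA. They were also searched with a looser ARE core, TGACNNNGC. This core covers TGACTCAGC but not TGAGTCAGC, so a strict match need not be among its matches. The motifs were chosen after the promoter windows had been seen, so the shares that follow are descriptions only. The strict spelling was found in 2 of the 9 windows of these 7 genes, those of Osgin1 and Srxn1. It was found in 0.822% of all 32851 windows. The looser core was found in 4 of the 9 windows, 1 each of Srxn1, Gclm, Txnrd1 and G6pdx, and in 12.4% of all windows. In Srxn1 it lay at positions 29 to 37, away from the strict match. The AP-1 motif alone occurred in 5.20% of windows, among them those of Osgin1 and Srxn1. The 150 bases before the start are shown for the 2 strict matches and for Gclm, 3 genes with large late changes (the values follow), with the match in capitals. Txnrd1 and G6pdx, which also held the looser core, had smaller late changes and are not shown. The windows of Slc7a11 and Nqo1 held none of these motifs, and these genes were 8.52 and 2.81 times the control level at 405 min. Whether a match goes with the size of the change was not tested.
Osgin1 (chr8:119436997-119437146, plus strand, match on the minus strand at -99 to -91): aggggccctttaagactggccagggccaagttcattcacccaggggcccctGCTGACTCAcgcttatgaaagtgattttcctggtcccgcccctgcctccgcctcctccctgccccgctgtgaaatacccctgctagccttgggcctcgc
Srxn1 (chr2:152105374-152105523, plus strand, match on the plus strand at -45 to -37): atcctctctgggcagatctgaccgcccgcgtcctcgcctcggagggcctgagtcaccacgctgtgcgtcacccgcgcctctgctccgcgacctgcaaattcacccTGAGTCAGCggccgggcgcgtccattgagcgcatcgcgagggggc
Gclm (chr3:122245407-122245556, plus strand, looser core on the minus strand at -134 to -126): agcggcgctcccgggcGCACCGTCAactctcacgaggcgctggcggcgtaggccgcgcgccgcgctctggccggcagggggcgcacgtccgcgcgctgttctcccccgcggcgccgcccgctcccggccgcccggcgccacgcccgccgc
Positions were counted from the start site, with -1 the last base before it. A match describes the letters of the window and is not evidence of binding.

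Total read counts were between 6652539 and 30258404 per sample, and control replicate 3 had the fewest. Levels are given as CPM, counts for every 1000000 reads of a library, scaled by TMM, a normalization that equalizes the bulk of genes between samples. No label names a batch, so the samples were split into 2 sets, called library sets here, by the slope of expression on GC content. The cut was at the widest gap, between -0.673 in 45 min replicate 1 and -0.387 in 405 min replicate 2. The next widest gap lay between control replicates 3 and 4, at -1.381 and -1.135. Set 2 held control replicate 2, 45 min replicate 3 and 405 min replicates 1, 2 and 4. Set 1 held the other 10 samples, including all 3 of the 135 min group. The study's methods name 2 library preparation procedures without saying which sample had which. Whether the sets match those procedures was not tested. Exonic GC content of the 10 genes ran from 40.1% in Slc7a11 to 58.8% in Osgin1. Control replicate 2 had the highest CPM of the 5 controls for 8 of the 10 genes, and control replicate 3 had the lowest for 7. At 405 min the 1 sample of set 1, replicate 3, was the lowest of the 4 for 8 genes. Calls of the 10 genes that changed with a covariate for the set, or within a set, are therefore given beside the values from all samples. Within set 1 the 405 min group, and within set 2 the control group, was a single sample, assumed to vary like the others. Fibroblast markers were high in every sample, with at least 56.1 CPM for each of 8 markers, and markers of epithelial, immune and endothelial cells were at most 3.84 CPM. In such bulk RNA, a change in the number of responding cells and a change in transcripts per cell cannot be told apart.

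S1 removal was followed by a rise of most of these transcripts. At 45 min no gene passed edgeR's quasi-likelihood test at an adjusted p of 0.05, where 0% of the 10276 tested genes were called higher. DESeq2 called 1 of the 10 genes higher (Osgin1), beside 0.0195% of the genes it tested. At 135 min 6 genes were called higher, against 0.564% of all tested genes, and these were Hmox1, Osgin1, Gclc, Gclm, Slc7a11 and Gsr. By 405 min 9 genes were called higher, against 9.99% of all tested genes, with Nqo1, Srxn1 and G6pdx added and Txnrd1 the exception. No member was called lower than control at 45, 135 or 405 min, where 0%, 0.895% and 13.4% of tested genes were.

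The median log2 fold change of the 10 genes against control was 0.33 at 45 min, 1.05 at 135 min and 1.88 at 405 min. Over all tested genes the medians were 0.02, -0.06 and 0.00. Samples of the treated group lay above all 5 controls for 1 member at 45 min (0.467% of tested genes), 6 members at 135 min (4.79%) and 9 members at 405 min (6.75%). All comparisons with control share the same 5 samples.

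**Figure D1:**
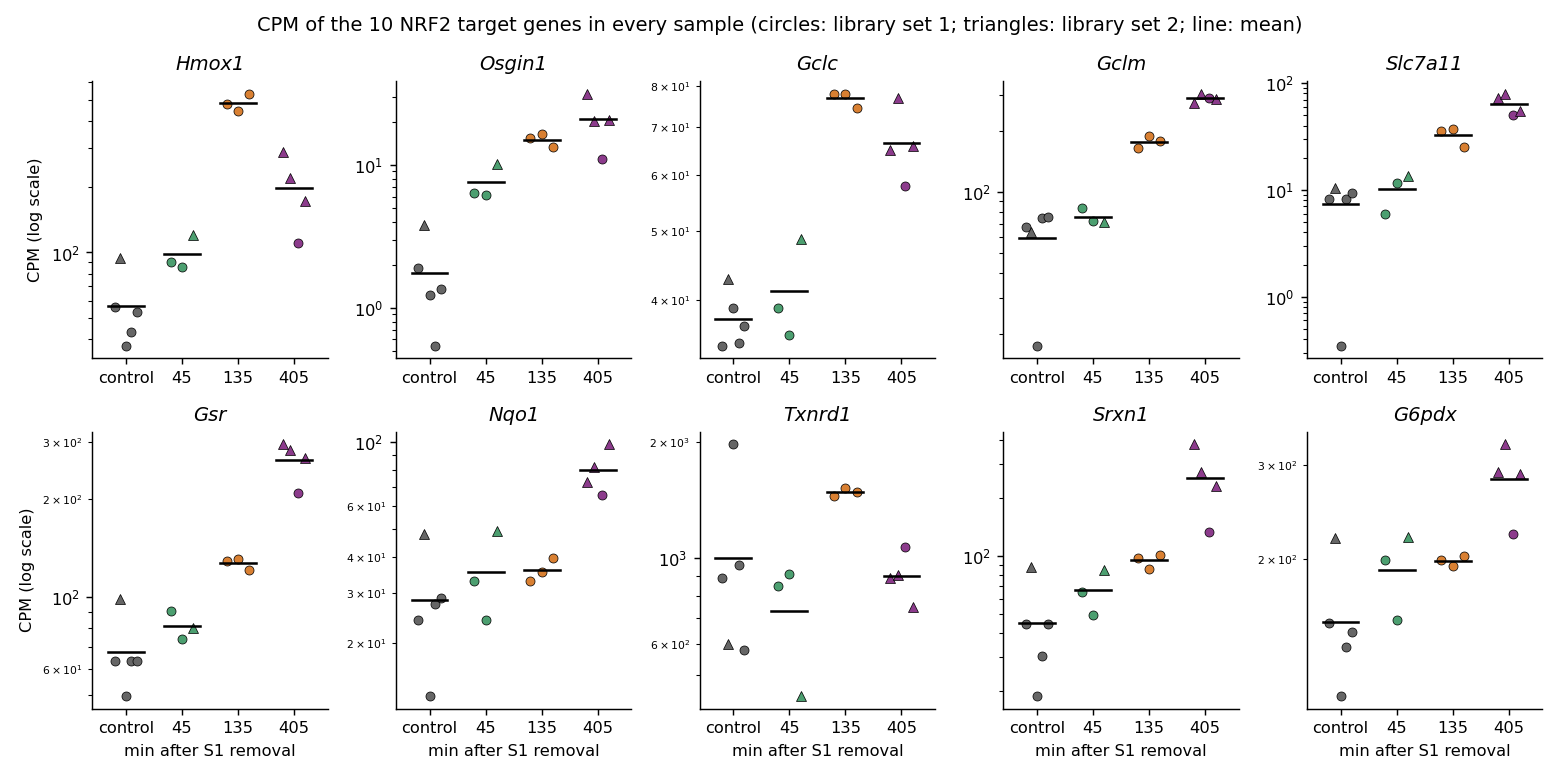
CPM on a log axis of each of the 10 genes in every sample, by group (control and min after S1 removal), with circles for library set 1, triangles for library set 2 and a line at the group mean. Hmox1 was highest at 135 min (442 to 533 CPM), whereas Gclm, Slc7a11, Gsr, Nqo1, Srxn1 and G6pdx had all 4 samples at 405 min above the 135 min samples.

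Hmox1 (chr8:77617517-77624491 in mm9, plus strand) encodes heme oxygenase 1, which breaks down heme to biliverdin, iron and carbon monoxide. It had 56.1, 94.4, 37.5, 43.1 and 53.3 CPM in the controls and 90.5, 85.6 and 120.4 CPM at 45 min. It reached 478, 442 and 533 CPM at 135 min and then 287, 220 and 110.2 CPM in 405 min replicates 1 to 3 and 172 CPM in replicate 4. The 45 min samples overlapped only control replicate 2, the 135 min samples stood above all others, and the 405 min samples lay between the controls and the 135 min samples without touching either. The log2 fold change was 0.79 ± 0.30 (SE) at 45 min (edgeR adjusted p = 0.698), 3.09 ± 0.30 at 135 min and 1.79 ± 0.28 at 405 min, the last 2 with adjusted p of 5.4e-05 and 8.03e-04. Thus 8.5 times the control level at 135 min was followed by 3.46 times at 405 min, and both calls held in every setting tried, 26 and 27 of them. Within library sets the 405 min change was smaller, 1.20 in set 1 and 1.27 in set 2, with edgeR adjusted p of 0.0172 and 0.0212.

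Osgin1 (chr8:121961062-121970156), which encodes a growth inhibitor induced by oxidative stress, was the gene with the earliest separation from control. It was scarce in the controls, with 1.89, 3.81, 1.22, 0.544 and 1.36 CPM, and rested on as few as 7 counts. At 45 min it had 6.38, 6.11 and 10.1 CPM, at 135 min 15.4, 16.4 and 13.3 CPM, and at 405 min 31.5, 20.3, 10.9 and 20.7 CPM. Every treated sample was above every control, already at 45 min, where the log2 fold change was 2.05 ± 0.45 (4.15 times the control). That difference missed the threshold in the fit of all 15 samples (edgeR adjusted p = 0.698, unadjusted p = 3.92e-04), and passed it with a library set covariate (2.03, adjusted p = 0.0207), with an offset for GC content and length (1.83, adjusted p = 0.0439) and in DESeq2 (2.05, adjusted p = 0.0338). The rise at later times passed the test, with log2 fold changes of 3.05 ± 0.45 at 135 min (edgeR adjusted p = 0.00216) and 3.52 ± 0.44 at 405 min (adjusted p = 1.72e-04). The size at 405 min depended on the library set, 11.5-fold in all samples, 7.83-fold with the set as covariate, 8.59-fold within set 1 and 6.38-fold within set 2.

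**Figure D2:**
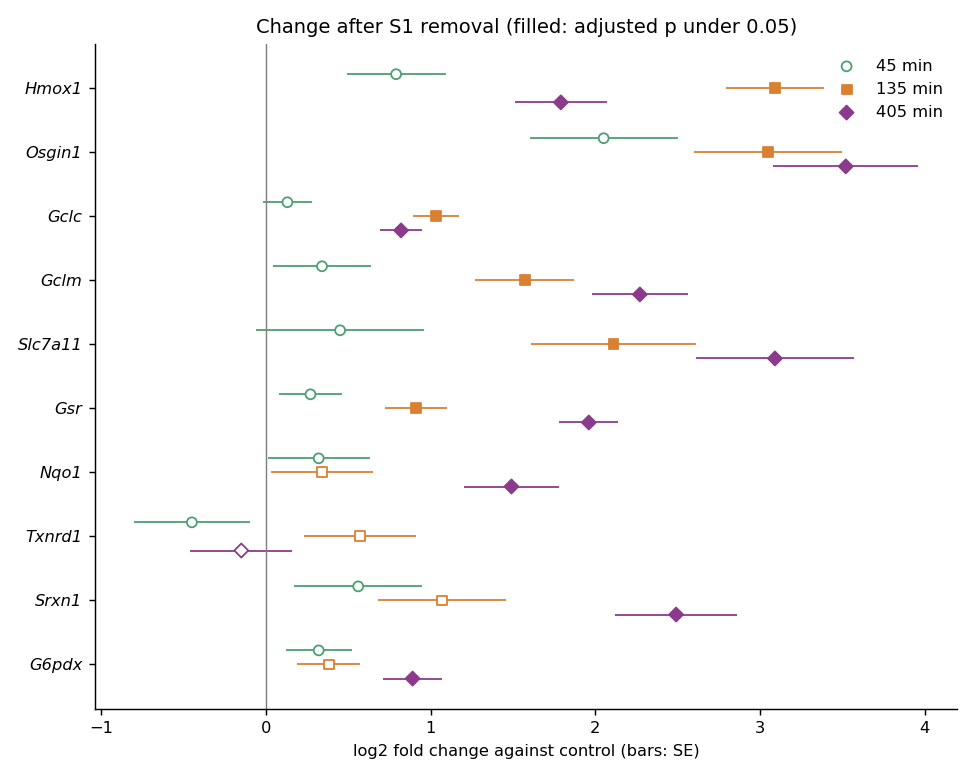
Log2 fold change against control (x axis, bars are SE) of each gene at 45, 135 and 405 min, with filled symbols where the edgeR adjusted p was under 0.05. No gene was called at 45 min, 6 were at 135 min and 9 were at 405 min, and Txnrd1 was called at no time.

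Glutathione synthesis was represented by both subunits of glutamate-cysteine ligase, the first and limiting enzyme, and by the cystine importer that feeds it. Gclc (chr9:77602617-77641458), the catalytic subunit, had 34.5, 42.8, 38.9, 34.8 and 36.7 CPM in controls and 38.9, 35.7 and 48.7 CPM at 45 min. It had 78, 78 and 74.4 CPM at 135 min and 64.9, 76.8, 57.9 and 65.9 CPM at 405 min. Both later groups were above all controls and overlapped each other. Its rise was modest but tight, 1.03 ± 0.14 in log2 at 135 min (2.05-fold, edgeR adjusted p = 0.00136) and 0.82 ± 0.13 at 405 min (1.77-fold, adjusted p = 0.00111). Within the library sets the 405 min values were 0.67 in set 1 and 0.71 in set 2, which missed the threshold (edgeR adjusted p = 0.0872 and 0.103).

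Gclm (chr3:121948510-121969566), the modifier subunit that raises the activity of the catalytic one, had its largest difference at 405 min. The controls held 67.1, 63.4, 17.6, 74.4 and 75.8 CPM, of which 17.6 was control replicate 3, and the 45 min samples held 83.7, 71.9 and 71.2 CPM. There were 164, 189.7 and 178 CPM at 135 min and 273, 305, 291 and 287 CPM at 405 min, so that the control, 135 min and 405 min samples did not overlap. The log2 fold change was 1.57 ± 0.30 at 135 min (2.96-fold, edgeR adjusted p = 0.0169) and 2.27 ± 0.29 at 405 min (4.83-fold, adjusted p = 1.84e-04). The call at 135 min was lost when any 1 of the 3 samples of that time was left out, with log2 fold changes of 1.62, 1.51 and 1.56 and edgeR adjusted p of 0.0663, 0.099 and 0.0838 without replicates 1, 2 and 3. It was also lost when only the control and 135 min samples were fitted (1.58, adjusted p = 0.151). Without control replicate 3 the call was kept, at 1.34 ± 0.11 (edgeR adjusted p = 1.83e-05).

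Slc7a11 (chr3:50168858-50247535), which encodes the cystine/glutamate antiporter subunit xCT, had 8.16, 10.5, 0.349, 8.22 and 9.4 CPM in controls, the low value being 2 counts in control replicate 3. It had 5.91, 11.6 and 13.4 CPM at 45 min, 35.3, 37.1 and 25.2 CPM at 135 min and 72, 79.7, 50 and 54.3 CPM at 405 min. Every 135 min sample was above every control and every 405 min sample was above every 135 min sample. The log2 fold change of 2.11 ± 0.50 at 135 min passed narrowly (4.33-fold, edgeR adjusted p = 0.0478) and was called in only 8 of 26 other settings. Of the 15 fits that left out 1 library, 13 lost the call, with log2 fold changes from 2.01 to 2.27 and edgeR adjusted p from 0.0526 to 0.206, whereas without control replicate 3 the value was 1.84 with an adjusted p of 0.00181. At 405 min the log2 fold change was 3.09 ± 0.48 (8.52-fold, edgeR adjusted p = 8.47e-04), and it was lost only within set 1 (2.86, adjusted p = 0.0634).

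Gsr (chr8:34763710-34808634) encodes glutathione reductase, which returns oxidized glutathione to its reduced form. Its level was 63.4, 98.8, 49.5, 63.3 and 63.5 CPM in controls, 90.6, 74.1 and 80.2 CPM at 45 min, 129, 131 and 121 CPM at 135 min and 295, 284, 209 and 267 CPM at 405 min. The 3 levels of control, 135 min and 405 min did not overlap, and the 45 min samples lay within the control range. The log2 fold change was 0.91 ± 0.19 at 135 min (1.87-fold, edgeR adjusted p = 0.0245) and 1.96 ± 0.18 at 405 min (3.89-fold, adjusted p = 1.6e-05, the smallest of the 10 genes at that time). The call at 135 min was lost without control replicate 1, 4 or 5 or any 1 of the 135 min samples, where the log2 fold change was 0.88 to 0.94 and the edgeR adjusted p 0.0576 to 0.13, and when only the control and 135 min samples were fitted (0.92, adjusted p = 0.148).

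Srxn1 (chr2:151931466-151937089) encodes sulfiredoxin, which reduces overoxidized peroxiredoxins. It had 44.2, 87.3, 18.7, 30.1 and 44.2 CPM in controls, 64.6, 49.4 and 84.9 CPM at 45 min, 97.1, 85.6 and 101 CPM at 135 min and 379, 273, 133 and 229 CPM at 405 min. At 135 min only replicate 2 reached down into the controls, just under control replicate 2, and at 405 min all 4 samples were above every earlier sample. Against control it was 2.49 ± 0.37 higher in log2 at 405 min (5.62-fold, edgeR adjusted p = 5.55e-04), and 3.82-fold within set 1 and 3.4-fold within set 2. At 135 min the log2 difference was 1.07 ± 0.39 with an edgeR adjusted p of 0.251. That earlier difference passed when the fit held a term for library set (1.38, edgeR adjusted p = 0.00265), within set 1 (1.45, adjusted p = 0.0127) and without control replicate 2 (1.45, adjusted p = 0.0265).

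Txnrd1 (chr10:82321951-82360469), cytosolic thioredoxin reductase, was the most abundant of the 10 per transcript length, with a mean of 119 ± 22.5 RPKM in controls (SD, n = 5, the authors' unit, which divides reads by gene length and depth). The other 9 had control means between 0.401 RPKM in Slc7a11 and 27.5 RPKM in G6pdx. Its CPM was 889, 601, 1969.8, 962 and 578 in controls, 845, 911 and 439.7 at 45 min, 1445, 1521 and 1485 at 135 min and 886, 905, 1068 and 748 at 405 min. Control replicate 3, the shallowest library, stood above all other samples, and the 135 min samples stood above every sample of the other groups but that one. No comparison with control passed the test, with log2 fold changes of -0.45 ± 0.35, 0.57 ± 0.34 and -0.15 ± 0.31 at 45, 135 and 405 min (edgeR adjusted p = 0.698, 0.543 and 0.731). Without control replicate 3 the value was 0.97 at 135 min (edgeR adjusted p = 0.064) and 0.25 at 405 min (adjusted p = 0.416), and with the library set as a covariate as well it was 0.84 (adjusted p = 0.00156) and 0.54 (adjusted p = 0.0178). On the deposited RPKM scale control replicate 3 was at 146, and the 135 min samples, at 223, 239 and 229, were above all 5 controls. The RPKM values of that control summed to 159763 over all genes and those of the other 14 samples to between 205986 and 312664. Its RPKM values are therefore not on the same scale as the rest, and the separation in that unit was not tested.

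Nqo1 (chr8:109912125-109927105, minus strand), the quinone reductase often used to read out NRF2 activity, was called only at 405 min. It had 24.1, 47.9, 13.1, 27.4 and 28.8 CPM in controls, 32.9, 24.1 and 49 CPM at 45 min, 32.8, 35.5 and 39.7 CPM at 135 min and 72.8, 82.1, 65.7 and 98.3 CPM at 405 min. Up to 135 min all samples lay in or beside the control range, and at 405 min all 4 were above every other sample. The log2 fold change was 0.34 ± 0.31 at 135 min (edgeR adjusted p = 0.715) and 1.49 ± 0.29 at 405 min (2.81-fold, adjusted p = 0.00344). Within the library sets the 405 min value was 1.47 in set 1 and 0.83 in set 2, both short of the threshold (edgeR adjusted p = 0.0502 and 0.067).

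G6pdx (chrX:71654825-71674500, minus strand) encodes glucose-6-phosphate dehydrogenase, the entry enzyme of the pentose phosphate pathway and a source of NADPH. Reads shared with its intronless copy G6pd2 could have been split in counting, which makes its values less certain. It had 152, 219, 111, 137 and 146 CPM in controls, 199, 154 and 220.1 CPM at 45 min, 199, 194 and 203 CPM at 135 min and 291, 328, 223 and 289 CPM at 405 min. The 405 min samples were above all others, although 405 min replicate 3 was close to control replicate 2 and to 45 min replicate 3. In log2 the fold change was 0.89 ± 0.18 at 405 min (1.85-fold, edgeR adjusted p = 0.00454) and within the sets 0.69 and 0.48, which missed the threshold (adjusted p = 0.102 and 0.249). At 135 min it was 0.38 ± 0.19 (edgeR adjusted p = 0.473), and the difference passed once the fit held a library set term (0.50, adjusted p = 0.0241) and within set 1 (0.54, adjusted p = 0.0469).

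**Figure D3:**
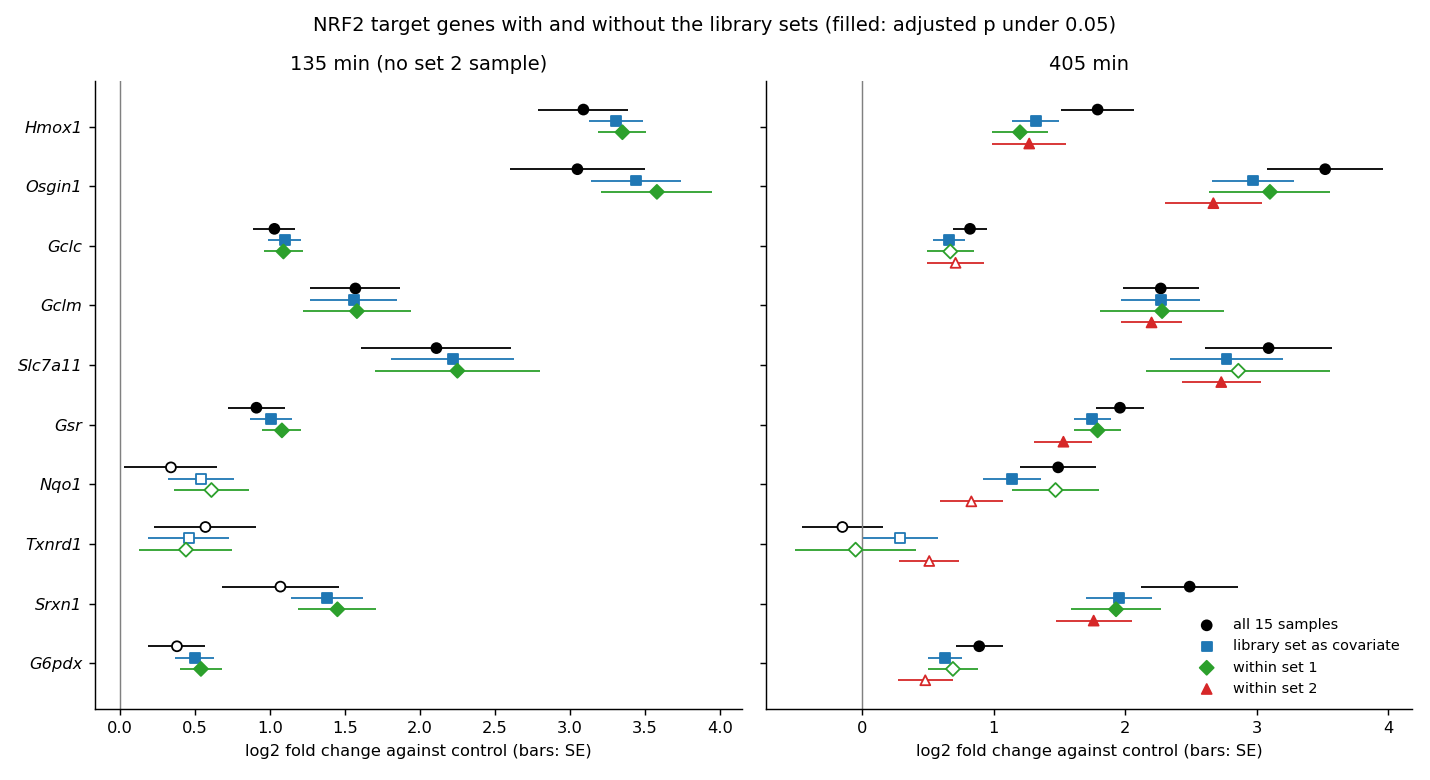
Log2 fold change against control (x axis, bars are SE) at 135 min and 405 min in all 15 samples, with a library set covariate, within set 1 and within set 2 (405 min only), filled where the edgeR adjusted p was under 0.05. Apart from Txnrd1, every value was above 0, and the 405 min changes of Hmox1, Osgin1, Gclm, Gsr and Srxn1 passed in both sets.

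With the library set as a covariate, 8 of the 10 genes were called higher at 135 min, against 3.06% of tested genes, and 9 at 405 min, against 6.17%. Within set 1 the counts were 8 at 135 min (2.11% of tested genes) and 5 at 405 min (1.18%), and within set 2 the count at 405 min was 6 (2.36%). The gene-by-gene values against control are set side by side in the plot of library sets.

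Between 45 and 135 min, 2 genes passed the test (0.185% of tested genes), and 8 of 10 had all 135 min samples above all 45 min samples (9.91%). Hmox1 rose by 2.29 ± 0.35 in log2 (4.9-fold, edgeR adjusted p = 0.00679) and Gclc by 0.90 ± 0.16 (1.87-fold, adjusted p = 0.0264). The median over the 10 genes was 0.95, beside -0.04 over all tested genes. Nqo1 and G6pdx, which overlapped, had values of 0.03 ± 0.35 and 0.06 ± 0.22. The Hmox1 call was lost without 45 min replicate 1 or 2 or 135 min replicate 3 (2.20 to 2.23, edgeR adjusted p 0.0514 to 0.0656), and that of Gclc without 45 min replicate 1 or 2, any 135 min replicate or 405 min replicate 4 (0.81 to 0.93, adjusted p 0.053 to 0.155). Without control replicate 3, 4 genes were called (0.292% of tested genes), and with a library set covariate 4 were called (0.438%), with Osgin1 (1.41 ± 0.32, edgeR adjusted p = 0.0457) and Gsr (0.76 ± 0.16, adjusted p = 0.0285) added.

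Persistence was read from the comparison of 405 with 135 min. From 135 to 405 min Hmox1 fell by 1.30 ± 0.31 in log2 (edgeR adjusted p = 0.0295), with every 405 min sample below every 135 min sample, while Gsr rose by 1.06 ± 0.20 (2.08-fold, adjusted p = 0.0113) with every sample above. These were the 1 gene called lower and the 1 gene called higher, where 2.82% and 2.24% of all tested genes were called. The median over the 10 genes was 0.61, beside 0.04 over all genes. Samples at 405 min were above all 135 min samples for 6 members (19.2% of tested genes), namely Gclm, Slc7a11, Gsr, Nqo1, Srxn1 and G6pdx. The largest differences that were not called were 1.42 ± 0.43 for Srxn1 and 1.15 ± 0.34 for Nqo1, with edgeR adjusted p of 0.0648 and 0.0611. Osgin1 and Gclc had differences of 0.47 ± 0.46 and -0.21 ± 0.15 between these times (edgeR adjusted p = 0.501 and 0.36), and Txnrd1 one of -0.72 ± 0.35 (adjusted p = 0.201).

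Calls between 135 and 405 min depended on single libraries. Hmox1 missed the threshold without any 1 of the 135 min samples or without 405 min replicate 2 or 4, with log2 fold changes from -1.36 to -1.22 and edgeR adjusted p from 0.0612 to 0.112. Gsr missed it without any 1 of the 135 min samples (1.02 to 1.08, adjusted p 0.064 to 0.0651). Without control replicate 3, 5 genes were called higher at 405 min than at 135 min (6.51% of tested genes), namely Gclm, Slc7a11, Gsr, Nqo1 and Srxn1. With the library set as a covariate the fall of Hmox1 was larger, a log2 fold change of -1.99 ± 0.22 (edgeR adjusted p = 6.92e-04), and the rise of Gsr smaller, 0.74 ± 0.17 (adjusted p = 0.028), whereas Srxn1 went from 1.42 to 0.56 and Osgin1 from 0.47 to -0.47. All 135 min samples were in set 1 and 3 of 4 samples at 405 min were in set 2. Within set 1, with its single 405 min sample, the values were -2.15 for Hmox1 and 0.71 for Gsr (edgeR adjusted p = 0.0513 and 0.166).

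**Figure D4:**
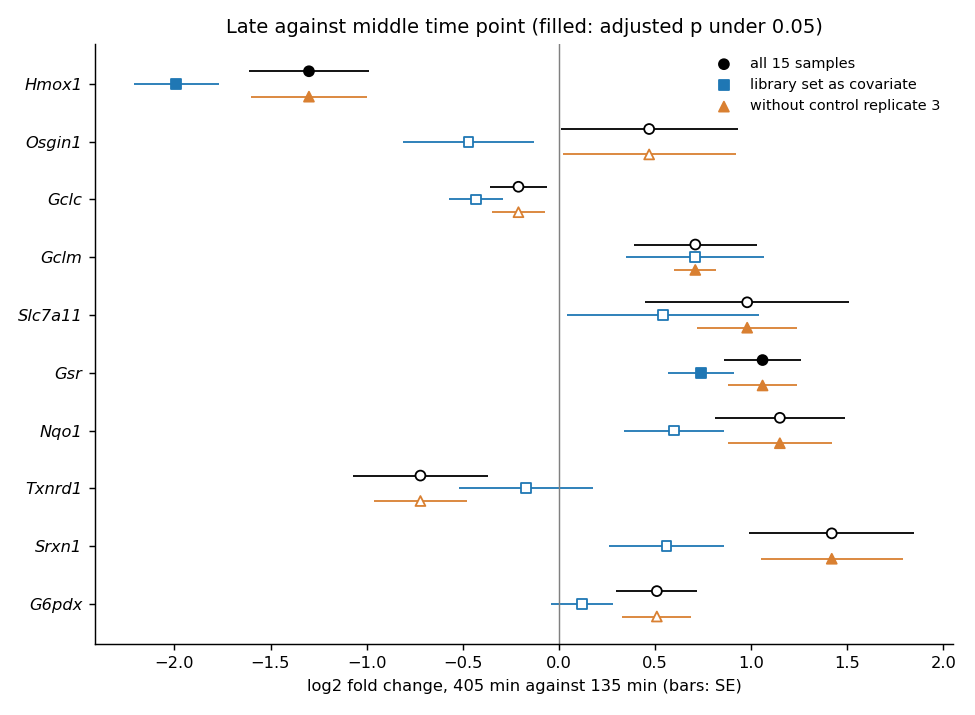
Log2 fold change at 405 min against 135 min (x axis, bars are SE) in all 15 samples, with the library set as a covariate and without control replicate 3, filled where the edgeR adjusted p was under 0.05. Hmox1 lay below 0 (-1.30 in all samples) and Gsr above 0 (1.06) in all 3 fits, and Osgin1 changed side with the covariate (0.47 and -0.47).

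A further 38 genes of the pathway were listed by function, also with earlier results of these data known. Of these, 35 were tested (Gsta3, Gpx2 and Aldh3a1 were not). None was called by edgeR or DESeq2 at 45 min. At 135 min 1 was called higher (0.564% of all tested genes), and at 405 min 20 were called higher (9.99%) and 1 lower (13.4%). Their median log2 fold change at 405 min was 0.99, beside 0.00 over all tested genes. Of 7 tested genes for glutathione synthesis, conjugation and export, 6 were called higher at 405 min. So were all 3 thioredoxin and peroxiredoxin genes, 3 of 5 for NADPH production, 2 of 5 for heme and iron and 3 of 5 detoxification enzymes. With a library set covariate these counts were 3, 2, 3, 3 and 2, and Gss, Gstm1, Gstp1, Abcc4, Txn1 and Aox1 missed the threshold (edgeR adjusted p = 0.138, 0.0615, 0.154, 0.105, 0.0612 and 0.0851). Mgst1 and Fth1 passed it with the covariate (edgeR adjusted p = 0.00136 and 0.0107). The total at 405 min was 17 with the covariate (6.17% of all tested genes), 10 within set 1 (1.18%), 14 within set 2 (2.36%) and 21 without control replicate 3 (9.08%). At 135 min it was 11 with the covariate (3.06%) and 7 within set 1 (2.11%), among them Sqstm1, Taldo1 and Blvrb.

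Of the factors and regulators of NRF2 itself, 3 of 10 were called higher at 405 min, against 9.99% of all tested genes. The transcript of the factor, Nfe2l2, had 81.7, 102, 121, 83.1 and 97 CPM in controls and 128, 131, 112 and 126 CPM at 405 min, with overlap. Its log2 fold change was 0.36 ± 0.15 (edgeR adjusted p = 0.0886) and 0.45 without control replicate 3 (adjusted p = 0.0395). With the library set as a covariate it was 0.24 ± 0.15 and did not pass (edgeR adjusted p = 0.331). Within set 1 the value was 0.22 and within set 2 it was 0.35. Keap1, its repressor, had 24.8, 47.2, 17.3, 17.7 and 21 CPM in controls and 102, 81.9, 52.5 and 92.8 CPM at 405 min, without overlap. It rose by 1.68 ± 0.32 in log2 (edgeR adjusted p = 0.00327), and by 1.36 within set 1 and 0.98 within set 2 (adjusted p = 0.0276 and 0.0257). Mafg, a small MAF partner, was the one gene called at 135 min (0.66 ± 0.12, edgeR adjusted p = 0.0153) and was at 0.91 ± 0.11 at 405 min (adjusted p = 1.72e-04). The competing repressor Bach1 had log2 fold changes of 0.54 ± 0.16 at 135 min and 0.30 ± 0.15 at 405 min, neither of which passed (edgeR adjusted p = 0.147 and 0.142). With a library set covariate both passed, at 0.48 ± 0.13 and 0.45 ± 0.14 (edgeR adjusted p = 0.0367 and 0.0381). Within set 1 the 135 min value of Bach1 was 0.50 and did not pass (edgeR adjusted p = 0.0758). At 405 min it was 0.57 within set 1 and 0.36 within set 2.

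Among the genes called higher at 405 min, the largest changes were in Sqstm1, Pgd, Taldo1, Blvrb and Gsta4. Ftl1, a ferritin light chain, had a value of 2.29 ± 0.90 that did not pass (edgeR adjusted p = 0.0729). Sqstm1 encodes p62, an autophagy receptor that also binds KEAP1, and its CPM went from 134, 365, 108, 123 and 203 in controls to 1829, 1298, 615 and 1269 at 405 min. All 4 late samples were above all controls, by 2.75 ± 0.40 in log2 (6.71-fold, edgeR adjusted p = 4.67e-04), and the change was 2.10 within set 1 and 2.02 within set 2. Pgd (2.33 ± 0.60, edgeR adjusted p = 0.0159) and Taldo1 (2.21 ± 0.32, adjusted p = 4.34e-04) encode pentose phosphate enzymes downstream of G6pdx. Within set 2 their values were 1.25 and 1.62 (edgeR adjusted p = 0.0154 and 0.00493). Pgd had 4.36 CPM in control replicate 3 against 40.3 to 139.6 CPM in the other controls, and within set 1 it missed the threshold (1.82, edgeR adjusted p = 0.2). Blvrb, biliverdin reductase B, rose by 2.13 ± 0.23 (edgeR adjusted p = 7.59e-05), and by 1.45 within set 2. Blvra, biliverdin reductase A, had a log2 fold change of 0.0 ± 0.16 at 405 min (edgeR adjusted p = 0.995). Gsta4, a glutathione transferase for lipid aldehydes, rose by 1.86 ± 0.17 (edgeR adjusted p = 1.67e-05). Ugdh, which makes UDP-glucuronate, was the 1 gene called lower (-1.29 ± 0.29, edgeR adjusted p = 0.00843), with -1.04 within set 1 and -0.39 within set 2, both short of the threshold (adjusted p = 0.141 and 0.363).

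**Figure D5:**
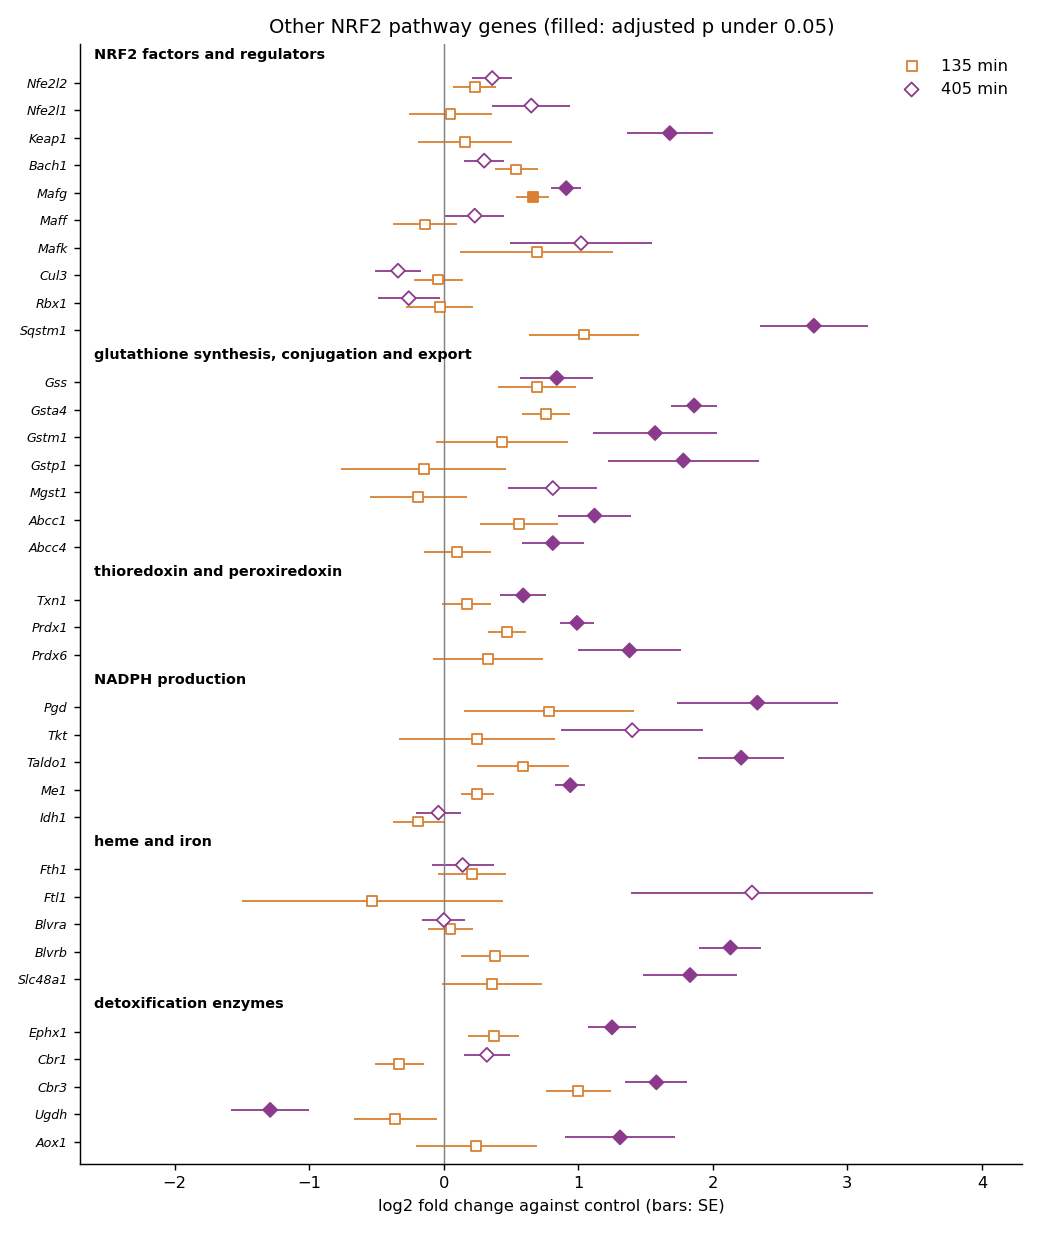
Log2 fold change against control (x axis, bars are SE) of the 35 tested other NRF2 pathway genes at 135 min (squares) and 405 min (diamonds), grouped by function, with filled symbols where the edgeR adjusted p was under 0.05. Only Mafg was filled at 135 min, and 20 genes above 0 and Ugdh below 0 were filled at 405 min.

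Among genes outside the set with a mean of at least 10 CPM, those whose log2 CPM followed Hmox1 most closely over the 15 samples included Ankrd11, Lpin1, Map4k4 and Rab40c, with Pearson correlations of 0.96, 0.94, 0.93 and 0.93. Over the 10 samples of set 1 they were 0.98, 0.94, 0.97 and 0.94. The points shared depth and library set, so these are descriptions. Within the set, Gclc followed Hmox1 most closely (0.92 over 15 samples), then Osgin1 (0.85), and Nqo1 (0.50) and Txnrd1 (0.29) least.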

How the data were processed

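Poly(A) RNA libraries of 15 samples were grouped by their titles. Per the labels and the study's methods, reads were aligned to mm9 and quantified against RefSeq on DNAnexus; the aligner version was not given in the sources used here. The authors deposited, per gene, a read count that is an expected count (estimated count, not always whole) and an RPKM value. Counts were rounded. Genes were kept if no sample had fewer than 1 count (10276), and were tested with edgeR 4.0.16 (quasi-likelihood, TMM, all 15 samples in 1 fit, group as the only term, Benjamini-Hochberg over all tested genes, threshold 0.05). CPM used TMM library sizes. Library sets were split at the largest gap in the slope of log2 CPM on exonic GC content (NCBIM37, GENCODE vM1, 95.8% of tested genes). Total counts ranged from 6652539 to 30258404, and low counts limit Osgin1 and Slc7a11 in controls. The 10 genes and the pathway lists were chosen with earlier results of these data known. Of the lists, the 5 largest calls in each direction against control and the regulators of NRF2 were named, and the 5 genes most like Hmox1, of which 1 is not reported here. Motifs were chosen after the promoter windows had been seen. No 2 replicates agreed within counting noise (chi-square per degree of freedom from 10.0 to 238.2 over 22 pairs). Same-numbered samples did not deviate together (mean correlation -0.11 over 19 pairs, 4 above 0.1), so replicate numbers were not used as pairs. Alternatives were DESeq2 1.42.0, other size factors, filters, sample subsets, a replicate block, the library set, a GC and length offset and leaving out each sample.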

Additional observations from a re-analysis of the deposited data

Results flagged for a closer look

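In control replicate 3, Gclm (17.6 CPM, the other controls 63.4 to 75.8) was far below the rest of its group: its gap to the nearest control was 0.878 of the group's range, above Dixon's critical value of 0.71. The same control was far below the others for Slc7a11 (0.349 CPM, others 8.16 to 10.5), with a gap of 0.921 of the range. These were 2 of 20 groups examined, and chance puts about 1 in 20 groups beyond that value. The change of Hmox1 against control differed between 405 and 135 min by -1.30 in log2 (edgeR adjusted p = 0.0295, all 4 late samples below the 3 earlier ones). For Gsr the difference between these times was 1.06 (edgeR adjusted p = 0.0113, all 4 late samples above).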

How the results depend on the processing

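The count of 9 genes higher at 405 min than control was 5 within library set 1, 6 within library set 2, 10 with the covariate and control replicate 3 left out, and 9 in the other settings; leaving out 1 library at a time it was 9 to 9. At 45 min the count of 0 became 1 with DESeq2, with the library set as a covariate, with the GC and length offset, and with the covariate and control replicate 3 left out (chosen after seeing the data). At 135 min the count of 6 became 3 with only the groups compared and 1 with the replicate block, and 3 to 7 with 1 library left out. Between 45 and 135 min the count of 2 became 1 without a filter, 0 with the replicate block, 1 with the replicate block and the offset, 4 with the covariate, 8 with the covariate and control replicate 3 left out, and 0 to 4 with 1 library left out. From 135 to 405 min the count of 1 higher became 3 with DESeq2, 6 with only the groups compared, 0 with the replicate block, 0 within set 1, 2 with the offset, 3 with the covariate and control replicate 3 left out, and 0 to 5 with 1 library left out. The count of 1 lower became 2 with only the groups compared, 0 with the replicate block, 0 within set 1, 2 with the covariate and control replicate 3 left out, and 0 to 1 with 1 library left out. The sources do not say whether same-numbered samples share more than a number, so the block was not read as a pairing. Shares of all tested genes called are not given beside these counts. Those computed, for some comparisons with DESeq2, with the covariate, within a set or without control replicate 3, are given above. For all other settings they were not examined. Among these were only the groups compared, the replicate block, the offset, no filter, and the covariate with control replicate 3 left out. Whether the counts in those settings moved more than the calls among all tested genes was not tested. Values that changed sign were those of Osgin1 from 135 to 405 min (-0.47 with the covariate, -0.48 within set 1, -0.21 with the offset, -0.04 with block and offset, -0.45 with the covariate and control replicate 3 left out), Nqo1 from 45 to 135 min (-0.11 with the offset, -0.15 with block and offset, and from -0.18 to 0.33 with 1 library left out), Gsr and Srxn1 at 45 min within set 2 (-0.29 and -0.03), Txnrd1 at 405 min (0.29 with the covariate, 0.51 within set 2, 0.54 with the covariate and control replicate 3 left out, and from -0.30 to 0.25 with 1 library left out), Gclc at 45 min (from -0.01 to 0.22 with 1 library left out) and G6pdx from 45 to 135 min (from -0.07 to 0.17). The causes were not tested. Of the single-gene values, 1189 kept their direction and side of the threshold, 66 lost and 47 gained the call and 18 changed sign.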
